A study of Mus musculus with 12 samples.

Results

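This account covers 10 steroid converting enzymes in captured mouse Leydig cells: Srd5a1, Srd5a2, Akr1c14, Akr1b7, Hsd11b1, Hsd11b2, Hsd17b1, Hsd17b11, Cyp19a1 and Sult1e1. They were chosen by name, as enzymes that reduce, oxidise, aromatise or sulfate finished steroids or clear steroid by-products. Their values were not the criterion, but earlier results of these data were known. The array files list 9 of the 10 names, with 11 probes. Hsd17b11 stands in the files under its older name Dhrs8, with 3 more probes, and was matched through its reference transcript. The set thus holds 10 genes of 27670 and 14 probes of 41174 on the array. A measurable signal was found for 8 of the 10 genes, and no probe passed for Hsd11b2 or Hsd17b1.

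Leydig cells lie between the seminiferous tubules of the testis and make testosterone from cholesterol. Once made, testosterone can be reduced to the more potent dihydrotestosterone, aromatised to estradiol or oxidised, and estrogens can be inactivated by sulfation. Leydig cells also interconvert active and inactive glucocorticoids, which act on testosterone production through the glucocorticoid receptor. Those of the enzymes described here that convert steroids therefore help to set which active steroid leaves the cell or stays in it.

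The tissue came from male C57BL/6J mice aged 21 weeks. DEHP mice had received di-(2-ethylhexyl) phthalate, a plasticiser, by daily gavage for 21 days, at 200 mg/kg/day with corn oil as the carrier, and vehicle mice had received corn oil alone. Leydig cells were cut by laser from sections of the right testis. RNA of each cap, from 1 mouse, was amplified in 2 rounds and labelled with Cy3 or Cy5. Each of 2 DEHP mice (numbers 1 and 4) was hybridised against each of 3 vehicle mice (numbers 1, 2 and 4) in both dye orientations, on 12 two-colour Agilent arrays. Each DEHP mouse thus has 6 arrays and each vehicle mouse 4, but the number of animals, 5, is the number of replicates.

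All values below are log2 levels of a mouse, set against the average of all 5 animals, unless a sentence says otherwise, so they compare mice within 1 probe and never one gene with another. Between 35.5% and 54.0% of the probes were well above background in a channel. All 10 Leydig cell markers gave a signal, 7 of them in all 24 channel readings, whereas Nr5a1 was above background in 9 of 24. The captured material also held other cells: all 12 spermatid markers, such as the protamine gene Prm1, were above background in all 24 readings. A lower value in a mouse can reflect fewer cells of a type or less RNA per cell, and the arrays cannot tell these apart.

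Every probe is a 60-base oligonucleotide printed as a single spot, with positions given on mouse assembly mm7 as in the files. No annotation of that assembly was used, so exons are not named. The leading 30 bases of the probes on which the results turn are shown in lower case, 5′ to 3′, with no part marked, because the probe defines which transcript was read. The 2 measured probes of Hsd17b11 gave different results, the Srd5a2 probe spans 3671 bases of the genome and so crosses at least 1 splice junction, and the others are each the only measured probe of their gene.
Sult1e1, chr5:87512926-87512985, minus strand: aatggagctctgagccacttccttgtgtct
Hsd17b11, brighter probe, chr5:103179411-103179470, minus strand: atcaccaggttttcagagcttgtactgtcg
Hsd17b11, dimmer probe, chr5:103182124-103182183, minus strand: cctcactgagaagcaaatgattttcgttcc
Srd5a1, chr13:66484124-66484183, minus strand: agaggaatcttgtcttaacactatactcta
Srd5a2, chr17:72306282-72309952, minus strand: tttaccaccacaggttctacctcaagatgt
Akr1c14, chr13:3974319-3974378, plus strand: tcaagacagactgctagactggatgtttat
Akr1b7, chr6:34354113-34354172, plus strand: gagatccgtgcatgatagattccttcgtct
Hsd11b1, chr1:192774594-192774653, minus strand: aaggacatgtttgtaagtaactaggaactc
Cyp19a1, chr9:54196600-54196659, minus strand: aagtagtattagcctgagtaaaatatagct

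The 14 probes fell into bright, dim and undetected ones. Srd5a1, Sult1e1 and the brighter Hsd17b11 probe were well above background on every array of all 5 mice. Akr1c14, Akr1b7, Hsd11b1, Srd5a2 and Cyp19a1 lay near the background, and in at least 1 mouse each of them was above it on some arrays or none. Of the remaining probes, the dimmer Hsd17b11 probe passed in most readings, and the other 5 passed in 3 or fewer of 24. The probes left out for this reason were those of Hsd11b2 (0 of 24) and Hsd17b1 (3 of 24), and 1 further probe each of Srd5a1 (1 of 24), Hsd17b11 (3 of 24) and Cyp19a1 (3 of 24). No probe of the 10 genes was saturated.

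**Figure D1:**
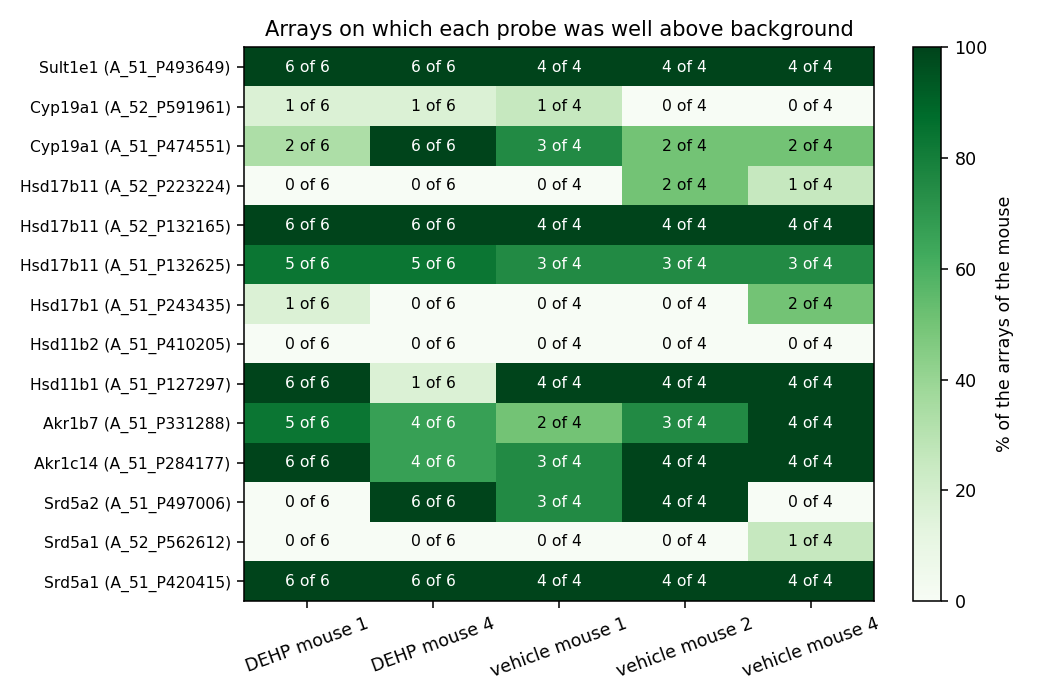
Number of arrays on which each of the 14 probes (vertical axis) was well above background in each mouse (horizontal axis), with the colour giving the percent of that mouse's arrays. Sult1e1, Srd5a1 and 1 Hsd17b11 probe passed on every array, and Srd5a2 passed on 6 of 6 arrays in DEHP mouse 4 but on 0 of 6 in DEHP mouse 1 and 0 of 4 in vehicle mouse 4.

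Srd5a1 and Srd5a2 encode the steroid reductases that convert testosterone to dihydrotestosterone. Srd5a1 was at 0.07 and -0.51 in DEHP mice 1 and 4 against -0.22, 0.30 and 0.35 in vehicle mice 1, 2 and 4. DEHP mouse 4 was the lowest, and DEHP mouse 1 lay between vehicle mice 1 and 2, so the groups overlapped. The group means were -0.22 ± 0.41 (SD, n = 2) and 0.15 ± 0.31 (SD, n = 3), a log2 difference of -0.36 (SE 0.29) with a 95% interval of -1.08 to 0.36. The neighbours at the top of the order, vehicle mice 4 and 2, were 0.06 apart (SE 0.05), which did not pass the test between extracts.

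Srd5a2 had another order of mice, although like Srd5a1 it was higher in vehicle mouse 2 than in vehicle mouse 1. It was at -0.32 and 0.59 in DEHP mice 1 and 4 against -0.06, 0.14 and -0.35 in vehicle mice 1, 2 and 4. DEHP mouse 4 was highest, and DEHP mouse 1 and vehicle mouse 4 were lowest, with no array above background in either (0 of 6 and 0 of 4). The group means were 0.13 ± 0.65 (SD, n = 2) and -0.09 ± 0.25 (SD, n = 3), a difference of 0.22 (SE 0.33, 95% interval -0.60 to 1.05). DEHP mouse 1 and vehicle mouse 4 give only an upper bound on this probe, so the group difference rests in part on signals at background. On the per-channel log2 scale the probe lay at 7.18 in DEHP mouse 4 and at 6.52 and 6.68 in vehicle mice 1 and 2, above background on 6 of 6, 3 of 4 and 4 of 4 arrays. The upper bounds were 6.17 for DEHP mouse 1 and 6.15 for vehicle mouse 4. Each is an average over arrays of the larger of the probe's own signal and the lowest signal well above background. No fold is given for Srd5a2, because its size depended on the scale and on the treatment of background.

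Akr1c14, an aldo-keto reductase that inactivates dihydrotestosterone, was at 0.29 and -0.41 in DEHP mice 1 and 4. It was at -0.27, -0.08 and 0.47 in vehicle mice 1, 2 and 4. Vehicle mouse 4 and DEHP mouse 1 were high and DEHP mouse 4 and vehicle mouse 1 low, so that each group held a high and a low mouse. The difference between the groups was -0.10 (SE 0.33, 95% interval -0.92 to 0.72), from -0.06 ± 0.49 (SD, n = 2) against 0.04 ± 0.38 (SD, n = 3).

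Akr1b7 encodes an aldose reductase-like protein that clears isocaproaldehyde, the by-product of cholesterol side-chain cleavage. It was at 0.22 and -0.26 in DEHP mice 1 and 4 against -0.17, 0.05 and 0.16 in vehicle mice 1, 2 and 4. The 3 vehicle mice lay between the 2 DEHP mice. The means of -0.02 ± 0.33 (SD, n = 2) and 0.01 ± 0.17 (SD, n = 3) gave a difference of -0.03 (SE 0.24, 95% interval -0.62 to 0.56). Its probe was dim, above background on 18 of 24 readings, and its range of 0.47 over the 5 mice was smaller than that of 72.6% of all genes tested.

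Hsd11b1 and Hsd11b2 encode the glucocorticoid converting enzymes: Hsd11b1 mainly regenerates active corticosterone, and Hsd11b2 inactivates it. Hsd11b1 was at 0.28 and -0.49 in DEHP mice 1 and 4 against 0.11, -0.07 and 0.16 in vehicle mice 1, 2 and 4. Its signal was above background on every array of the other 4 mice but on only 1 of 6 in DEHP mouse 4, the lowest of the 5. The 3 vehicle mice again lay between the 2 DEHP mice, at 0.07 ± 0.12 (SD, n = 3) against -0.10 ± 0.54 (SD, n = 2). The difference was -0.17 (SE 0.28, 95% interval -0.87 to 0.53). Hsd11b2 was not well above background in any reading, which does not show that the gene was off.

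Hsd17b11 encodes a lipid droplet-associated dehydrogenase that oxidises hydroxysteroids such as androstanediol, and Hsd17b1 the enzyme that reduces estrone to estradiol. Hsd17b11 had the widest range of the set. It was at 1.14 and -1.32 in DEHP mice 1 and 4 against -0.53, -0.22 and 0.92 in vehicle mice 1, 2 and 4. DEHP mouse 1 and vehicle mouse 4 were high, and DEHP mouse 4 lay below every other mouse, on 6 of 6 arrays below its partner. The per-channel log2 intensities were 12.7 and 10.1 in the DEHP mice and 11.1, 11.3 and 12.4 in the vehicle mice. The group means of -0.09 ± 1.74 (SD, n = 2) and 0.06 ± 0.76 (SD, n = 3) were 0.15 apart, far less than the spread within either group (difference -0.15, SE 0.80, 95% interval -2.13 to 1.84).

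The dimmer Hsd17b11 probe, which lies nearby on the same chromosome, did not repeat this pattern. It was at 0.08 and 0.04 in DEHP mice 1 and 4 against -0.06, -0.10 and 0.05 in vehicle mice 1, 2 and 4, a difference of 0.09. Its range of 0.18 was smaller than that of 97.4% of all genes. It was above background on 19 of 24 readings, but dim. Its per-channel log2 intensities were 6.65 and 6.74 in the DEHP mice and 6.63, 6.59 and 6.59 in the vehicle mice. Both probes are assigned to the same reference transcript. How far so dim a probe can show differences was not tested. The probes thus disagreed, and the wide range of Hsd17b11 rests on the brighter probe alone. Hsd17b1 was above background on 1 array of DEHP mouse 1 and 2 arrays of vehicle mouse 4, and no difference is given for it.

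Cyp19a1 encodes aromatase, which converts testosterone to estradiol. It was at -0.12 and 0.27 in DEHP mice 1 and 4 against 0.16, -0.11 and -0.21 in vehicle mice 1, 2 and 4. Like Srd5a2, it was highest in DEHP mouse 4, where 6 of 6 arrays were above background against 2 of 6 in DEHP mouse 1. The difference between the groups was 0.12 (SE 0.23, 95% interval -0.45 to 0.70), from 0.07 ± 0.27 (SD, n = 2) against -0.05 ± 0.19 (SD, n = 3). The 3 lowest mice, DEHP mouse 1 and vehicle mice 2 and 4, lay within 0.10 of one another.

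Sult1e1 encodes the estrogen sulfotransferase, which inactivates estrogens and is known as an abundant Leydig cell product. It was at 0.94 and -1.38 in DEHP mice 1 and 4 against -0.76, 0.33 and 0.88 in vehicle mice 1, 2 and 4. The order from high to low was DEHP mouse 1, vehicle mouse 4, vehicle mouse 2, vehicle mouse 1 and DEHP mouse 4. The leading 2 mice, 1 of each group, were 0.07 apart (SE 0.04), and the steps below them were between 0.55 and 1.09. On the per-channel log2 scale the probe lay at 15.5 and 13.5 in the DEHP mice and at 14.0, 15.0 and 15.6 in the vehicle mice. The group means were -0.22 ± 1.64 (SD, n = 2) and 0.15 ± 0.83 (SD, n = 3), a difference of -0.37 (SE 0.79, 95% interval -2.33 to 1.60).

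The arrays of Sult1e1 repeated each other closely. With DEHP RNA in Cy3 and in Cy5, DEHP mouse 1 was 1.69 and 1.67 above vehicle mouse 1, 0.62 and 0.68 above vehicle mouse 2, and 0.04 and 0.07 above vehicle mouse 4. DEHP mouse 4 was at -0.61 and -0.59 against vehicle mouse 1, -1.74 and -1.74 against vehicle mouse 2, and -2.30 and -2.20 against vehicle mouse 4. The arrays of a pair thus differed by at most 0.10, whereas the pairs ran from 1.69 to -2.30. The spread of this gene thus lay between the RNA extracts of the mice and not between arrays.

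**Figure D2:**
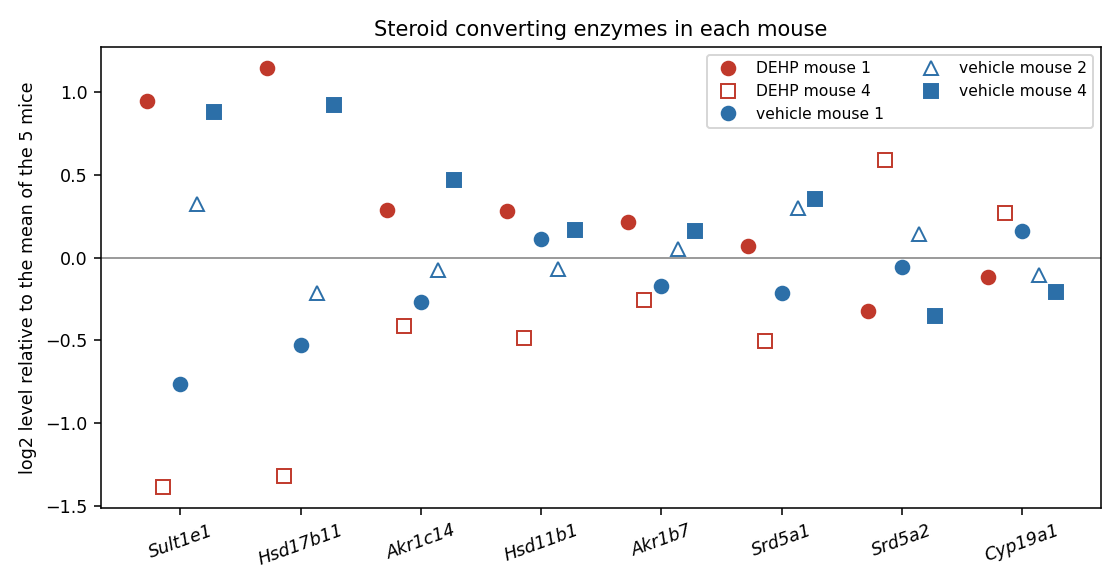
Log2 level of the 8 measured enzymes relative to the mean of the 5 mice (vertical axis), with 1 point per mouse, red for DEHP and blue for vehicle. DEHP mouse 4 (open red square) is the lowest mouse for Sult1e1, Hsd17b11, Akr1c14, Hsd11b1, Akr1b7 and Srd5a1 and the highest for Srd5a2 and Cyp19a1, and for none of the 8 do the groups separate.

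The first comparison asked whether DEHP exposure changed these enzymes. None of the 8 measured enzymes passed the test. On average 6 lay lower and 2 higher in DEHP mice, with a median log2 difference of -0.12, beside -0.01 over all 15830 genes tested (8177 below 0 and 7653 above). In limma with Benjamini-Hochberg adjustment over all genes the adjusted p was 1.00 for each of the 8, and 0% of all genes passed 0.05. Without adjustment, 136 genes had a limma p under 0.05, and none of them was among the 8. The DEHP and vehicle mice overlapped for all 8 enzymes, whereas over all genes 9.17% did not overlap. The intervals of Sult1e1 and Hsd17b11, -2.33 to 1.60 and -2.13 to 1.84, were the widest of the 8, and differences within them were not detectable with 5 mice. For dim probes the size also depended on the treatment of background: with the scanner software's processed signals Hsd11b1 differed by -0.94, Srd5a2 by 0.82 and Cyp19a1 by 0.55, none past the test.

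The sign of most differences rested on single animals. Without DEHP mouse 4 the median of the 8 enzymes was 0.21 and 7 of the 8 differences changed sign, Sult1e1 to 0.79 and Hsd17b11 to 1.08. Without DEHP mouse 1 the median was -0.50, with Sult1e1 at -1.53 and Hsd17b11 at -1.37. Without vehicle mouse 4 the signs of Akr1c14, Akr1b7 and Hsd17b11 turned, and the median was 0.04. Srd5a1 was below 0 with any 1 mouse left out, from -0.65 to -0.07. No enzyme passed with any mouse left out, where the lowest adjusted p was 0.688. With 1 DEHP mouse left, its spread is taken from the vehicle group.

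**Figure D3:**
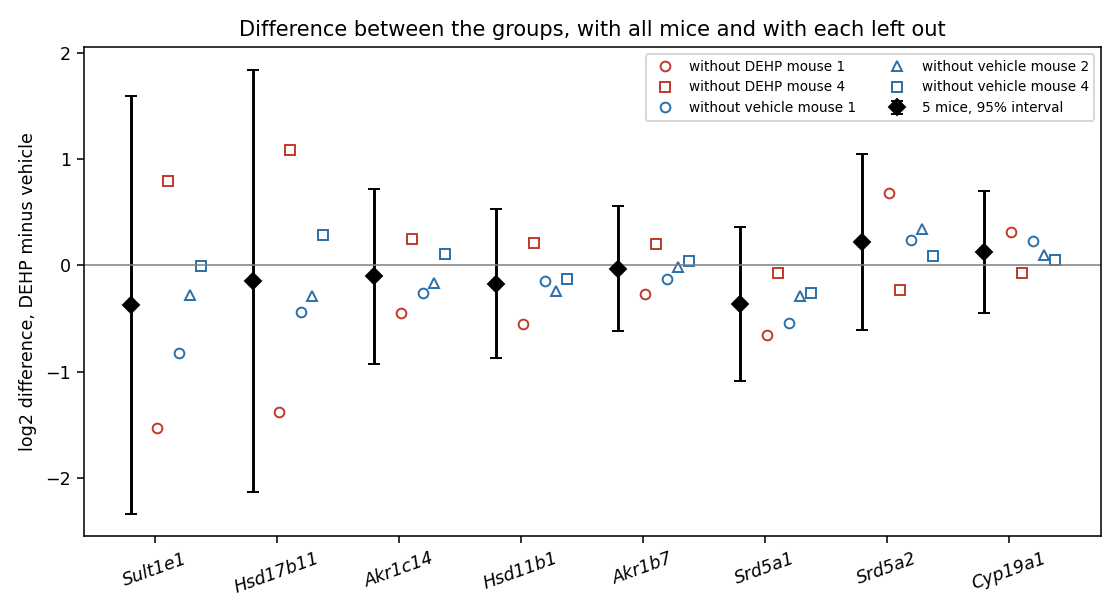
Log2 difference, DEHP minus vehicle (vertical axis), for the 8 measured enzymes: black diamonds with 95% intervals from the 5 mice, open points with 1 mouse left out. All 8 intervals include 0, and leaving out DEHP mouse 4 or DEHP mouse 1 moves Sult1e1 to 0.79 or -1.53.

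The arrays lay on 3 slides, which were compared as a batch. Vehicle mice 1 and 2 were on slides 1 and 2, with DEHP RNA in Cy5 on the first and in Cy3 on the other, and vehicle mouse 4 was alone on slide 3. The median difference of the 8 enzymes was 0.14 on slide 1, -0.04 on slide 2 and -0.40 on slide 3. Sult1e1 was at 0.00 on slide 1, -0.01 on slide 2 and -1.10 on slide 3, and Hsd17b11 at 0.15, 0.43 and -1.01. Slides 1 and 2 also carry the dye effect, and slide 3 cannot be told apart from vehicle mouse 4. A slide block was no check of this: with both dye orientations balanced within slides 1 and 2 together and within slide 3, its dye terms leave the values as they are by construction.

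The next comparison set extracts of mice of the same group against each other, in order to measure how far extracts of mice with the same treatment differed. It compares RNA extracts of single mice and not conditions, and it used the mean of the dye-swapped arrays of each pair. Differences between animals, captures and amplifications cannot be told apart here. DEHP mouse 4 differed from DEHP mouse 1 for 8 of 8 enzymes at a limma adjusted p under 0.05, beside 76.7% of all genes. Hsd17b11 was 5.49-fold lower in DEHP mouse 4 (log2 -2.46, SE 0.08, adjusted p = 1.6e-05) and Sult1e1 was 5.01-fold lower (log2 -2.33, SE 0.04, adjusted p = 1.4e-05). In these loess-normalised values only 0.126% and 0.234% of all genes differed more between these mice. Both enzymes were thus among the genes that differed most between these extracts, Hsd17b11 by its brighter probe alone. The dimmer Hsd17b11 probe differed by -0.04, and 94.1% of all genes differed more.

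The size of the difference depended on the processing for all 8 enzymes, Hsd17b11 and Sult1e1 included. In DEHP mouse 4, Akr1c14 was at -0.70 (SE 0.04) relative to DEHP mouse 1, Srd5a1 at -0.58 (SE 0.04) and Akr1b7 at -0.47 (SE 0.05), and Cyp19a1 was higher by 0.38 (SE 0.09). Hsd11b1 was at -0.77, with a signal above background on 1 of 6 arrays of DEHP mouse 4. Srd5a2 was at 0.91 against a signal at background in DEHP mouse 1, so that neither value measures a size. Dim probes depended on the treatment of background, and so did the order of the enzymes by size. With the scanner software's processed signals Hsd11b1 was at -2.97, Akr1c14 at -2.14, Akr1b7 at -1.09, Srd5a2 at 3.37 and Cyp19a1 at 1.52, whereas the bright Hsd17b11 and Sult1e1 were at -2.48 and -2.39. Median centring in place of loess gave -1.73 for Hsd17b11, -1.20 for Sult1e1, -0.27 for Akr1b7 and -0.13 for Srd5a1. All 8 kept their sign and passed in each of these settings.

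**Figure D4:**
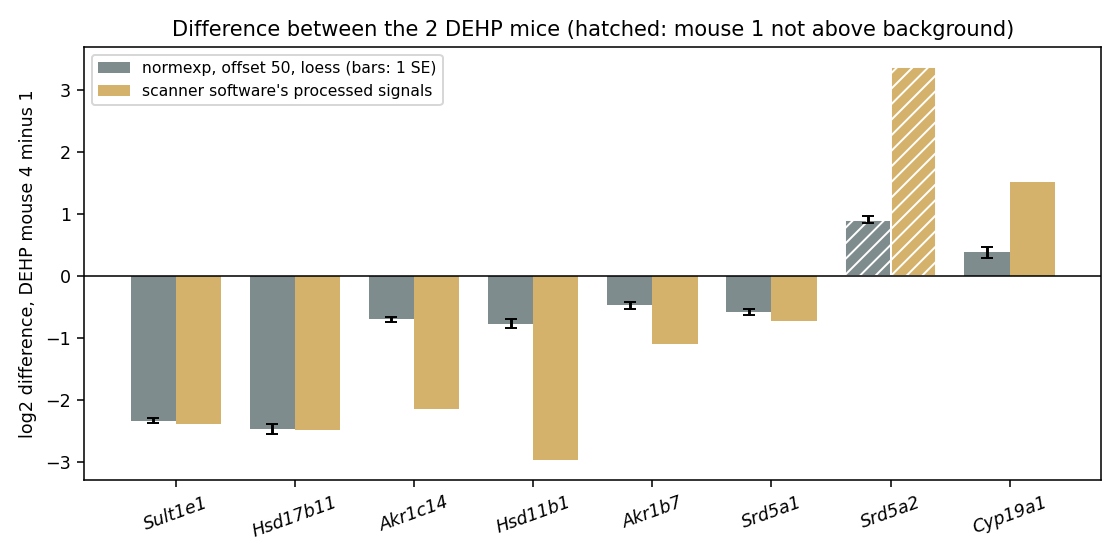
Log2 difference between the DEHP mice, mouse 4 minus mouse 1 (vertical axis), for the 8 measured enzymes, from the normexp and loess values (grey, with 1 SE) and from the scanner software's processed signals (yellow, no error drawn). Sult1e1 and Hsd17b11 lie near -2.33 and -2.46 in grey and close to the same values in yellow, while Hsd11b1 goes from -0.77 to -2.97 and Srd5a2 (hatched, at background in DEHP mouse 1) from 0.91 to 3.37.

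DEHP mouse 4 was the lowest of the 5 mice for 6 of the 8 enzymes, beside 29.9% of all genes, and the highest for the other 2, Srd5a2 and Cyp19a1, beside 25% of all genes. Extracts of mice given corn oil alone also differed. Vehicle mouse 2 differed from vehicle mouse 1 for 6 of 8 enzymes (70.4% of all genes), vehicle mouse 4 from 1 for 7 of 8 (68.9%) and vehicle mouse 4 from 2 for 4 of 8 (56.5%). Sult1e1 was 2.12-fold higher in vehicle mouse 2 than in 1 (log2 1.09, SE 0.05) and 3.11-fold higher in vehicle mouse 4 than in 1 (log2 1.64, SE 0.05). By its brighter probe Hsd17b11 was 2.74-fold higher in vehicle mouse 4 than in 1 (log2 1.45, SE 0.10). In the loess-normalised values Hsd11b1 did not pass in any of the 3 vehicle comparisons, with differences between -0.18 and 0.24 and an SE of 0.09. With median centring it passed between vehicle mice 2 and 1.

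The steps that precede and surround these enzymes varied in the same mice. Of 10 genes of testosterone synthesis, from cholesterol import to the last reduction, 3 lay above 0 and 7 below in DEHP minus vehicle, none passed, and the median was -0.07. The list had a median of 0.71 in DEHP mouse 1 and of -0.81 in DEHP mouse 4, beside -0.55, 0.29 and 0.46 in vehicle mice 1, 2 and 4, and 9 of the 10 genes were lower in DEHP mouse 4 than in DEHP mouse 1. The 3 genes of lowest p were Hsd17b3, which makes testosterone, at 0.57 (SE 0.38), Hsd3b1, which turns pregnenolone into progesterone, at -0.59 (SE 0.85), and Cyp11a1, the side-chain cleavage enzyme, at -0.38 (SE 0.59).

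A list of 35 further steroid converting enzymes and their partners gave 20 measured genes, with 6 above 0, 14 below and none past the test. Its median difference was -0.13. By mouse, the median of the list was 0.24 (DEHP mouse 1), -0.55 (DEHP mouse 4), -0.34, 0.10 and 0.25 (vehicle mice 1, 2 and 4). DEHP mouse 4 was the lowest mouse for 11 of the 20. Those of lowest p were Hsd17b4, a peroxisomal enzyme of fatty acid and estradiol oxidation, at -0.46 (SE 0.30), the aldose reductase Akr1b3 at -0.57 (SE 0.44) and Hsdl2, a peroxisomal dehydrogenase-like protein, at 0.62 (SE 0.50). H6pd, which supplies the reduced cofactor for Hsd11b1, was at 0.33 and -0.66 in DEHP mice 1 and 4 against -0.47, 0.48 and 0.31 in vehicle mice 1, 2 and 4. It was named here after its values were seen, as the partner of a described enzyme.

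Leydig cell markers were low in the same mice as some of the enzymes, but not all. The 10 Leydig cell markers, of which 5 also belong to testosterone synthesis, had a median of 0.68 in DEHP mouse 1 but -0.82 in DEHP mouse 4, and the vehicle mice 1, 2 and 4 had medians of -0.55, 0.31 and 0.52. All 10 were lower in DEHP mouse 4 than in DEHP mouse 1. The hormone gene Insl3 was at 0.91 and -1.29 in the DEHP mice and at -1.02, 0.50 and 0.90 in the vehicle mice, and Star, which carries cholesterol into mitochondria, at 0.81 and -0.72 against -0.95, 0.57 and 0.29. Sult1e1 was low in the same mice, DEHP mouse 4 and vehicle mouse 1. Of the 8 enzymes 6 were lowest in DEHP mouse 4, but Srd5a2 and Cyp19a1 were highest there. Hsd11b1 was higher in vehicle mouse 1 than in vehicle mouse 2. The marker Nr5a1, near background, was at 0.03 and -0.09 in the DEHP mice and at 0.12, -0.04 and -0.02 in the vehicle mice. Whether the yield of Leydig cells had a part in the enzyme values was not tested.

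Spermatid markers had their highest median in DEHP mouse 4 and Leydig cell markers their lowest, but the other mice were not in reverse order. All 12 spermatid markers lay above 0 in DEHP minus vehicle, with a median of 0.69, and none passed the test over all genes. Their median was 0.03 in DEHP mouse 1, 0.83 in DEHP mouse 4 and 0.26, -0.68 and -0.45 in vehicle mice 1, 2 and 4. Of the 12, 9 were highest in DEHP mouse 4, as were Srd5a2 and Cyp19a1. Srd5a2 came next in vehicle mouse 2 (0.14), where the spermatid median was lowest. Cyp19a1 came next in vehicle mouse 1 (0.16), as did the spermatid median. Prm1 was at 0.32 and 0.88 in the DEHP mice and at -0.13, -0.73 and -0.34 in the vehicle mice, and the transition protein gene Tnp1 at 0.12 and 1.26 against -0.32, -0.76 and -0.30. The part of spermatid RNA in the values of Srd5a2 and Cyp19a1 was not tested.

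Markers of other cell types also varied across the mice, some as widely. For 8 macrophage markers the median was 0.47 in DEHP mouse 1, -0.47 in DEHP mouse 4 and -0.43, 0.02 and 0.45 in vehicle mice 1, 2 and 4, with 4 genes above 0 and 4 below in the group difference. These medians came in the same order of mice as those of the Leydig cell markers, and all 8 genes were lower in DEHP mouse 4 than in DEHP mouse 1. The 5 peritubular myoid markers, genes of contractile cells around the tubules, had the lowest group median of the lists, -0.86, with all 5 below 0 and all 5 lowest in DEHP mouse 4 (median -0.91). Of 10 measured Sertoli cell markers 1 lay above 0 and 9 below (median -0.31), of 7 spermatocyte markers 5 above and 2 below (median 0.09), and of 5 endothelial markers 1 above and 4 below (median -0.11). No marker of any list passed the test. The part of these cell types in the enzyme values was not tested.

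**Figure D5:**
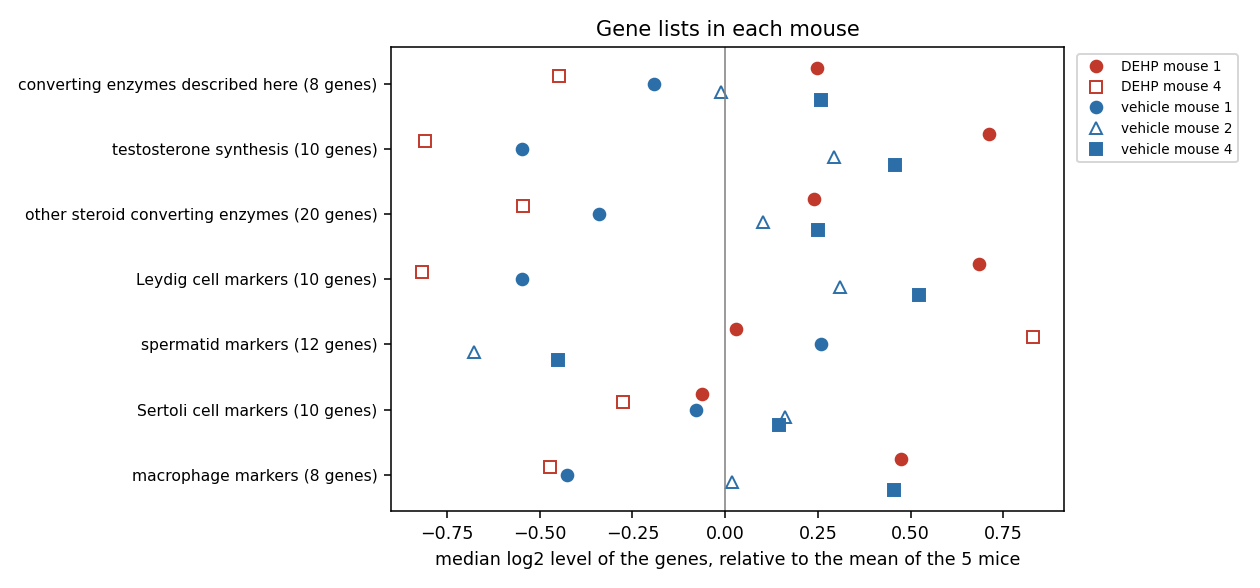
Median log2 level of the genes of each list, relative to the mean of the 5 mice (horizontal axis), with 1 point per mouse, red for DEHP and blue for vehicle. The 8 converting enzymes, testosterone synthesis and Leydig cell markers are lowest in DEHP mouse 4 (-0.45, -0.81 and -0.82), and spermatid markers are highest there (0.83).

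For each enzyme the 3 genes whose 5 mouse values lay nearest to its own were taken, by the root mean square (RMS) difference in log2, among 12608 named genes. With 5 mice such likeness is a description. Sult1e1 was nearest to Gsto1, a glutathione transferase (RMS 0.08), F13a1, a coagulation factor subunit (0.09), and Nxph3, a neurexophilin (0.10). Hsd17b11 was nearest to Ptgds, a prostaglandin D synthase (0.22), to Gsto1 (0.23) and to the kinase gene Jak3 (0.25). Gsto1, at 0.87 and -1.30 in the DEHP mice and at -0.71, 0.19 and 0.94 in the vehicle mice, thus stood near both wide-ranging enzymes.

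The 3 nearest genes lay at an RMS of 0.05 or less for Srd5a1 (Pank4, Cyp4v3 and Trim68), Akr1c14 (Il13ra1, Panx1 and Tor3a), Akr1b7 (Hcfc1r1, Ik and Hacd4), Hsd11b1 (Eef1akmt1, Cops9 and Ndufa2) and Cyp19a1 (Kcmf1, Rbm11 and Ccr6). Srd5a2, which was highest in DEHP mouse 4, was nearest to Kcnip2 (0.05), Dnah6, a dynein heavy chain (0.06), and Stag3, a cohesin subunit of meiosis (0.07).

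Promoter sequence was available from RefSeq (assembly GRCm38.p6) for 8 of the 10 genes, with 10 windows of 250 bases before a transcript start. They were searched on both strands for AAGGTCA, the core of the site bound by NR5A1 (SF-1), a nuclear receptor of steroid-making cells, since Sult1e1 and other enzymes were high and low in the same mice as Leydig cell markers. The motif was present in 2 of the 10 windows, those of Akr1b7 and Sult1e1, and in 4.08% of 32851 windows of all genes. Both matches were on the reverse strand, and a match of letters is no evidence of binding. The 2 windows with the motif are shown 5′ to 3′ on the strand of the gene, with the match in capitals, and that of Hsd17b11, the other wide-ranging enzyme, which holds none, is shown beside them.
Sult1e1, chr5:87591612-87591861, minus strand: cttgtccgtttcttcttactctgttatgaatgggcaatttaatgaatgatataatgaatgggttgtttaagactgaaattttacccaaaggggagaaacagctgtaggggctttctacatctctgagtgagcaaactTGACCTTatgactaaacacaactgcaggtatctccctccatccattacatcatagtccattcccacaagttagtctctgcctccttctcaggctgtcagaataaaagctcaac
Akr1b7, chr6:34412112-34412361, plus strand: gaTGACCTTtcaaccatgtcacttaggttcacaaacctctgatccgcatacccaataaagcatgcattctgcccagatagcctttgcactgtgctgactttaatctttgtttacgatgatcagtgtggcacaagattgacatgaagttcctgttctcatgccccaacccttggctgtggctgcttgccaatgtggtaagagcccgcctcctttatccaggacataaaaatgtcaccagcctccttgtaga
Hsd17b11, chr5:104021797-104022046, minus strand: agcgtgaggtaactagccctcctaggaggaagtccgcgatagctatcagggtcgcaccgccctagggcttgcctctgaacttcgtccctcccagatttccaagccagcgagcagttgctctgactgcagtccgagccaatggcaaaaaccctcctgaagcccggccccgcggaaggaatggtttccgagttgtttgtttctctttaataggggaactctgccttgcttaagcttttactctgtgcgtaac
In Sult1e1 the match starts 113 bases before the transcript start and in Akr1b7 248 bases before it. Of these 3 genes, Sult1e1 and Hsd17b11 ranged widely over the mice, each on a bright probe. Akr1b7 had a narrow range on a dim probe, whose differences depended on the treatment of background. With processed signals Akr1b7 was at -1.09 in DEHP mouse 4 relative to DEHP mouse 1, against -0.47 in the normexp and loess values. Whether the motif goes with the range of a gene was not tested.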

How the data were processed

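The authors deposited scanner files of 12 arrays with, per the file headers, spot intensity (mean signal and local background) in 2 channels, processed intensity and a log10 ratio of Cy5 over Cy3. The authors also deposited a value table of log2 ratios, made from these arrays by filtering and normalization steps that stay unknown. Its columns tracked the scanner ratios taken as DEHP over vehicle (r from 0.915 to 0.993, slopes from 0.842 to 0.932) and had medians from -0.06 to 0.00. The log10 ratios served only to check directions. Limma appears in the submitters' processing notes without a version.

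The rest was computed in R 4.3.3 with limma 3.58.1: normexp (offset 50), loess within arrays with control spots at weight 0, outlier spots left out, and least squares over 12 log ratios for 1 value per mouse. A probe was kept (21198 were) if 2 or more mice had it well above background on 50% or more of their arrays, and the probe of highest mean intensity stood for a gene. The group test was lmFit with eBayes on 1 value for each of 5 mice (3 residual degrees of freedom) and the extract test used 6 pair means (2 residual degrees of freedom), both adjusted after Benjamini-Hochberg over all genes, with 0.05 as the threshold. Per-channel levels took loess and Aquantile. The scripts were tested on simulated arrays. Named genes were the enzymes, the 3 genes of lowest p in each steroid list, the 3 nearest genes of each enzyme, and Insl3, Star, Prm1 and Tnp1. H6pd and Nr5a1 were named after their values were seen. The enzymes and lists were chosen with earlier results of these data known. The labels speak of single caps of independent mice, and of more mice per group than were analysed here.

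Of the 15830 genes, 10550 were named by transcript accession, 1894 by current symbol and 971 by older symbol, and 2415 keep the file's name. The number of arrays limits the precision of each value.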

Additional observations from a re-analysis of the deposited data

How the results depend on the processing

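The count of enzymes that passed between DEHP and vehicle mice was 0 in every setting with a test: another background correction, offset, normalization, filter or probe rule, the authors' table and left-out mice. The dye and slide terms leave the values unchanged by construction. The signs stayed at 6 below and 2 above 0 with processed signals, an offset of 16 and median centring, but processed signals moved Hsd11b1 from -0.17 to -0.94, Akr1c14 from -0.10 to -0.42, Srd5a2 from 0.22 to 0.82, Cyp19a1 from 0.12 to 0.55 and the median from -0.12 to -0.28. A filter that asks for every array of a mouse left 6 of the enzymes, and the authors' deposited table held 2, Srd5a1 and Hsd17b11.

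Taken one at a time, the slides gave other signs for some enzymes. On slide 1 Akr1c14 was at 0.13, Akr1b7 at 0.15, Hsd17b11 at 0.15 and Sult1e1 at 0.0035, and on slide 2 Akr1c14 at 0.087, Hsd17b11 at 0.43 and Cyp19a1 at -0.072. Slides 1 and 2 carried no array of vehicle mouse 4, so slide and mouse cannot be told apart, and the cause was not tested.

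Leaving out each mouse in turn moved the median from -0.50 to 0.21 and the count of enzymes without overlap from 0 to 8, being 8 when DEHP mouse 1 was dropped (56.6% of all genes), 4 for DEHP mouse 4 (29.1%) and 1 for vehicle mouse 1 (34.2%). Differences ran from -0.23 to 0.68 for Srd5a2, -0.45 to 0.25 for Akr1c14, -0.27 to 0.20 for Akr1b7, -0.55 to 0.21 for Hsd11b1, -1.37 to 1.08 for Hsd17b11, -0.067 to 0.32 for Cyp19a1 and -1.53 to 0.79 for Sult1e1. Fewer mice enter these fits, and dim probes limit the precision of the 5 enzymes near background.

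Between extracts, median centring gave 7 enzymes for vehicle mice 4 and 2, against 4, while the share of all genes went from 56.5% to 67.5%. For vehicle mice 2 and 1 it gave 5 enzymes, beside 74.4% of all genes. Akr1c14, Akr1b7 and Hsd17b11 were not among them, whereas Hsd11b1 and Cyp19a1, which had not passed with loess, were. Some vehicle differences of Srd5a2, Akr1b7, Hsd17b11, Akr1c14 and Cyp19a1 no longer passed in some settings.

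Mice that share a number did not deviate together (r across genes of -0.73 for number 1 and -0.56 for number 4). These values rest on single mice, so they cannot show whether the numbers pair them. With the number as a replicate block the median was -0.20 and the smallest adjusted p 1.00, with 0 genes past the test.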
